A study of Mus musculus with 13 samples.

Results

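The 10 genes described here bind, store or carry metal ions in cells. They are the metallothionein genes Mt1, Mt2 and Mt3, the ferritin chain genes Fth1 and Ftl1, the haem oxygenase gene Hmox1, the transferrin gene Trf and its receptor gene Tfrc, and the transporter genes Slc11a2 and Slc40a1. They were taken by symbol out of the 55291 gene symbols counted in the series, and all 10 were counted in each of its 13 libraries. The libraries held polyadenylated RNA of the CA1 region of mouse entorhino-hippocampal tissue cultures, in which a slice of brain keeps the hippocampus and the entorhinal cortex that projects to it. In all 3 groups the cultures came from wildtype C57BL/6 mice, were prepared at postnatal day 4 to 5 and matured for at least 18 days in a medium with horse serum. The 5 control libraries came from cultures without a lesion. The 4 SCL libraries came from cultures with a Schaffer collateral lesion, a scalpel transection of the input from CA3 to CA1, and the 4 ECL libraries from cultures with an entorhinal cortex lesion, a transection of the perforant path. CA1 was isolated 3 days after the lesion without the scar, and each library came from 1 culture. Whether cultures of a group came from different animals was not given in the sources used here, so the p-values measure the spread between cultures.

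Metallothioneins are small cysteine-rich proteins that hold zinc and copper, and Mt1 and Mt2 are switched on by zinc through the factor MTF1. Mt1 and Mt2 are expressed in many tissues and, in brain, mainly in astrocytes, while Mt3 is largely a brain gene. Iron reaches brain cells on transferrin, is taken up through the transferrin receptor, crosses the endosomal membrane through the divalent metal transporter encoded by Slc11a2, is stored in ferritin, a shell of heavy (Fth1) and light (Ftl1) chains, and leaves through ferroportin (Slc40a1), the one known exporter of iron ions. Iron held in haem is released by haem oxygenase 1 (Hmox1). When iron is scarce, iron regulatory proteins bind hairpins in the mRNAs, called iron-responsive elements, which blocks translation when the hairpin lies in the 5′ untranslated region (UTR) and protects the mRNA when it lies in the 3′ UTR. Ferritin and transferrin receptor protein can therefore change without a change in mRNA, and only mRNA was measured here.

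The hairpins are shown because they set the genes that iron controls at translation apart from the gene that it controls through mRNA stability. They were found by a search for the loop CAGTGN, an unpaired C 5 bases before it and an upper stem of 5 base pairs, in GENCODE M21 transcripts (GRCm38). The capitals mark the unpaired C and the loop.
Fth1, 5′ UTR, chr19:9982732-9982759, plus strand: ttcctgCttcaaCAGTGCttgaacggaa
Ftl1, 5′ UTR, chr7:45459780-45459807, minus strand: gtcttgCttcaaCAGTGTttgaacggaa
Slc40a1, 5′ UTR, chr1:45925466-45925493, minus strand: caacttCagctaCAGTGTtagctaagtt
Tfrc, 3′ UTR, chr16:32631219-32631246, plus strand: aattatCggaagCAGTGCcttccataat
Tfrc, 3′ UTR, chr16:32631598-32631625, plus strand: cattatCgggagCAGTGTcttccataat
Tfrc, 3′ UTR, chr16:32631663-32631690, plus strand: ctatatCggagaCAGTGAtctccatatg
Tfrc, 3′ UTR, chr16:32631710-32631737, plus strand: aattatCgggaaCAGTGTttcccataat
The ferritin chains share the loop-side stem, and the transferrin receptor mRNA carried 4 such hairpins. The same search found a match in a UTR of 160 of 21877 protein-coding genes (0.731%), and none in Slc11a2, whose known element has a further unpaired base.

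The metallothionein promoters are shown because Mt1 and Mt2 are classical targets of zinc. The 3 genes lie side by side on chromosome 8, in the order Mt3, Mt2, Mt1. Each line gives the 250 bases before an annotated transcription start (RefSeq, GRCm38.p6), which need not be the start most used in CA1. Matches to the core of the metal response element, TGCACNC or TGCGCNC on either strand, are in capitals.
Mt1, chr8:94178839-94179088, plus strand: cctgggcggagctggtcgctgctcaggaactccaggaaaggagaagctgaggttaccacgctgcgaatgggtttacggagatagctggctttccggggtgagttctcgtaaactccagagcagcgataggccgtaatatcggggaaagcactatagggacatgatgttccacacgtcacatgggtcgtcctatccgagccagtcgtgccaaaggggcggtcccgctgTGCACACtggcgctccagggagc
Mt2, chr8:94172368-94172617, plus strand: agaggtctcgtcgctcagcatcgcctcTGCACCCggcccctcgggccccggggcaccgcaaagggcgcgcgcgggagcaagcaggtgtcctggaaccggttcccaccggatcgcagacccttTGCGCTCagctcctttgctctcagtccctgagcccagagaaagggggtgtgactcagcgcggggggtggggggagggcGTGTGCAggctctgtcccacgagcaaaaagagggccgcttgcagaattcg
Mt3, chr8:94152357-94152606, plus strand: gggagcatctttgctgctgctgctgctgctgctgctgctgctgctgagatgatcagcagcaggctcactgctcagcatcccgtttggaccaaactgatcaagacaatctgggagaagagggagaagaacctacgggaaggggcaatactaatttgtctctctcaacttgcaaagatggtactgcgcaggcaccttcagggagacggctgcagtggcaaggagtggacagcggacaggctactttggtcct
Counted with the 50 bases after that start, the core occurred 4 times in the Mt2 promoter, 3 times in Mt1 and 1 time in Mt3. Matches farther downstream were not counted, so these numbers do not compare the whole promoters of the 3 genes. Of all 32851 promoters in the table, 25.7% held at least 1 match, 1.97% at least 3 and 0.517% at least 4. The Fth1 and Ftl1 promoters held none, and 1 of the Tfrc promoters held 2 overlapping matches. The antioxidant response element core TGACNNNGC, the site of the oxidative stress factor Nrf2, occurred 1 time in the Mt2 promoter and in 12.4% of all promoters. Hmox1, Trf, Slc40a1 and Slc11a2 had no entry in the table.

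Library totals ran from 14371152 to 56786613 counts, with control libraries at the low end (up to 21092612). Symbols with any count numbered 29987 to 40042 in control libraries, 30230 to 35163 in SCL and 28685 to 33342 in ECL libraries. The highest numbers were those of control replicates 4, 3 and 1, despite their lower totals. The cause was not tested. Levels are given as CPM, counts per 1000000 counts of the library after scaling by TMM, which sets the libraries to a common level over 11649 expressed genes. Levels of regional markers are given beside the CA1 label. With different genes for each region and no reference tissue, the sums cannot decide which region was taken. The summed level of 5 CA1 markers was 193 to 406 CPM per library, of 4 CA3 markers 29.9 to 127 CPM and of 6 dentate granule cell markers 12.2 to 25.1 CPM. The 6 red blood cell markers, which would carry haem iron and haem synthesis mRNA, summed to at most 2.18 CPM in any library. Of 14 microglia and macrophage markers, 12 could be tested, and 12 rose after SCL and 8 after ECL. Their sum was 532 to 666 CPM in controls, 1140 to 2339 CPM after SCL and 1244 to 1673 CPM after ECL. In tissue, more cells of a type and more mRNA per cell cannot be told apart.

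After either lesion most genes of metal binding and storage rose, the endosomal transporter gene Slc11a2 fell, and the transferrin receptor gene lay inside the control range in all 8 lesioned libraries. After SCL, 5 of the 9 genes that could be tested passed an adjusted p of 0.05 (edgeR quasi-likelihood test, Benjamini-Hochberg over all genes tested). Mt1, Mt3, Ftl1 and Trf rose and Slc11a2 fell, while 24.9% of all 11438 genes tested passed (13.1% upward and 11.8% downward). Without SCL replicate 3 3 of the 9 (Mt1, Ftl1 and Trf) and 1679 genes in all passed. After ECL, 6 of the 9 passed, the same 5 genes and Fth1, against a background of 27.8% of 11212 genes (15.2% upward and 12.5% downward). Over the 9 genes the median log2 difference from controls was 0.69 (SCL) and 0.83 (ECL), beside 0.01 and -0.01 for all genes tested. The control range and the lesioned range were separate for 4 of these genes after SCL and 6 after ECL, beside 23.6% and 25.0% of all genes tested. The control libraries were common to both comparisons. Slc40a1 had too few counts for the test, which required a mean of 150 normalised counts.

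**Figure D1:**
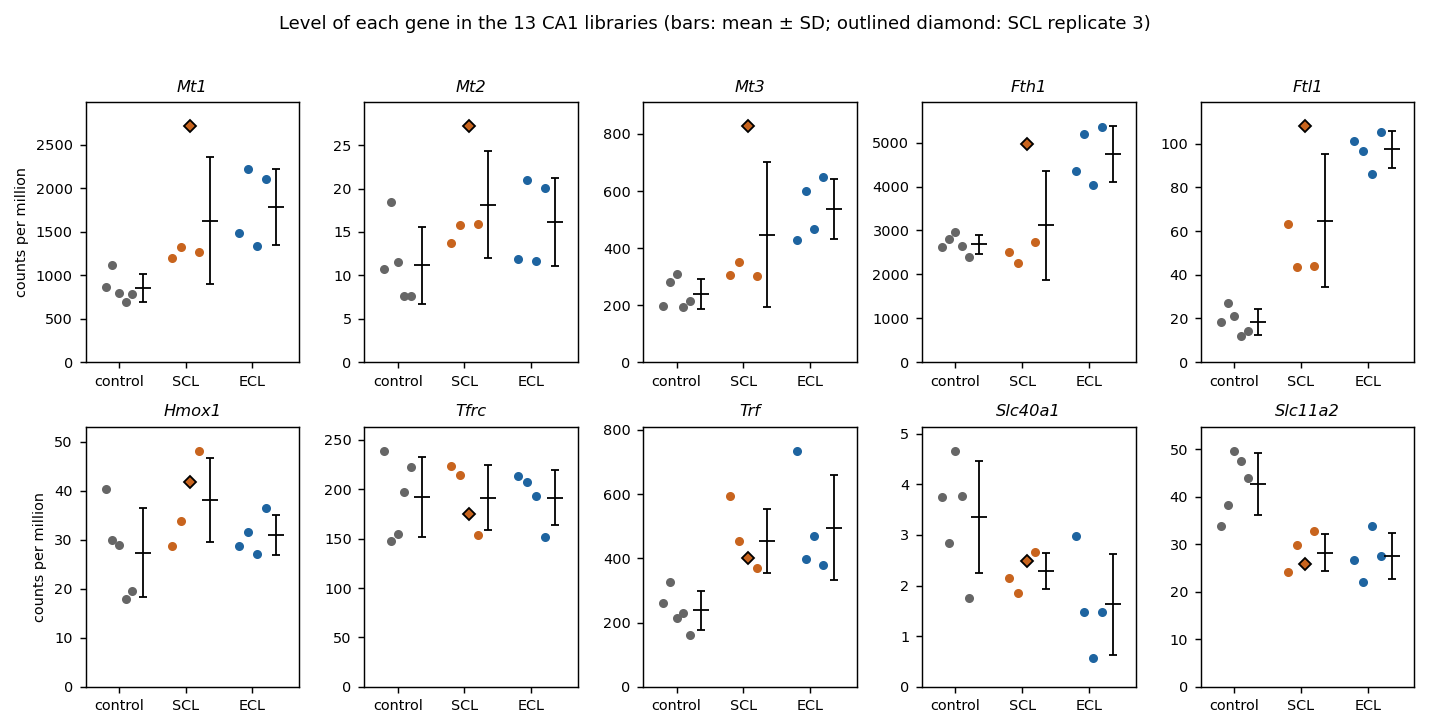
Level of each of the 10 genes in CPM (vertical axis, from 0 in each panel) for the control, SCL and ECL libraries; each point is 1 culture and the black bars give the mean ± SD. The outlined diamond is SCL replicate 3, which lies at 2717 CPM for Mt1 while the other SCL libraries lie between 1201 and 1321 CPM. For Ftl1 the highest control, 27.0 CPM, lies below the lowest lesioned library, 43.3 CPM.

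Per base of exon, Fth1 and Mt1 were the most abundant of the 10 mRNAs in the control cultures. Divided by merged exon length, the control level was 773 ± 60.8 CPM per kb for Fth1 and 681 ± 128 CPM per kb for Mt1 (SD, n = 5), which differed by less than 1 SD. Mt3 followed at 224 ± 50.2 CPM per kb, Trf at 71.7 ± 18.1 and Tfrc at 31.1 ± 6.50. Mt2 (19.0 ± 7.54), Hmox1 (15.6 ± 5.18) and Ftl1 (13.8 ± 4.42 CPM per kb) came next, with Hmox1 within 1 SD of both others, and the Mt2 and Ftl1 counts leave out reads shared with other genes. Slc11a2 stood at 6.72 ± 1.03 CPM per kb and Slc40a1 at 0.372 ± 0.123. After ECL the order began with Mt1 (1434 ± 354 CPM per kb, n = 4) and Fth1 (1366 ± 186), again within 1 SD of each other. Ftl1 moved from the eighth place to the fifth, at 72.6 ± 6.23 CPM per kb after ECL and 48.3 ± 22.7 after SCL. Merged exon length exceeds the longest annotated transcript unevenly, at 3469 against 2062 bases for Fth1 and 1246 against 1085 for Mt1. The order of genes with close values, Fth1 and Mt1 included, therefore depends on the length used.

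Mt1 (chr8:94179082-94180327, plus strand, GRCm38) encodes a metallothionein that is expressed in many tissues. Its level in the 5 control libraries was 865, 1113, 794, 692 and 782 CPM. In the 4 SCL libraries it was 1201, 1321, 2717 and 1267 CPM, and in the 4 ECL libraries 1487, 2220, 1336 and 2106 CPM. Every lesioned library lay above every control, and SCL replicate 3 lay above all others. Mt1 rose by 0.94 ± 0.24 on the log2 scale (SE) after SCL (edgeR adjusted p = 0.0156) and by 1.08 ± 0.19 after ECL (edgeR adjusted p = 0.00132), which is 1.91-fold and 2.12-fold.

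Mt3 (chr8:94152607-94154146, plus strand) encodes the brain metallothionein, also known as growth inhibitory factor. Control libraries held 195, 282, 309, 191 and 216 CPM. SCL libraries held 306, 352, 828 and 301 CPM, and ECL libraries 429, 600, 467 and 649 CPM. All 4 ECL libraries lay above the controls, whereas the SCL range began inside the control range and ended far above it with replicate 3. Mt3 rose by 1.17 ± 0.18 on the log2 scale after ECL (edgeR adjusted p = 0.000646) and by 0.90 ± 0.29 after SCL (edgeR adjusted p = 0.0363).

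Mt2 (chr8:94172664-94173568, plus strand) is usually induced together with Mt1. It was counted at a low level, 10.7, 18.4, 11.6, 7.59 and 7.59 CPM in controls. In SCL libraries it stood at 13.7, 15.8, 27.2 and 15.9 CPM and in ECL libraries at 11.9, 21.0, 11.7 and 20.04 CPM. The groups overlapped. The log2 difference from controls was 0.69 ± 0.30 after SCL (edgeR adjusted p = 0.100) and 0.53 ± 0.30 after ECL (edgeR adjusted p = 0.194). The Mt2 count is uncertain, since 73.5% of its exon bases are shared with Gm45774 on the opposite strand and the counting ignored strand. Mt1 counts exceeded Mt2 counts 60.4-fold to 125-fold per library.

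The size of the metallothionein change after SCL depended on 1 library. SCL replicate 3 held the highest Mt1, Mt2 and Mt3 values of the series and also the highest sum of microglia and macrophage markers (2339 CPM, other SCL libraries 1140 to 1631 CPM). Without it, Mt1 rose by 0.58 (edgeR adjusted p = 0.0437), and the Mt3 difference of 0.43 no longer passed (edgeR adjusted p = 0.136). The Mt3 difference after SCL also missed the threshold without control replicate 1 (0.84), 4 (0.82) or 5 (0.86), with edgeR adjusted p-values of 0.0681 to 0.0806. Mt2 passed without control replicate 2, its highest control (0.95 after SCL and 0.79 after ECL, edgeR adjusted p = 0.0256 and 0.0484). The summed level of 11 astrocyte markers was 9072 to 14754 CPM in controls, 10871 to 14487 CPM after SCL and 9937 to 12819 CPM after ECL. These ranges overlapped, and in SCL replicate 3 the astrocyte sum was 10915 CPM. Of the 11 markers, 4 rose and 1 fell after SCL, and 3 rose and 1 fell after ECL. The sum adds abundant markers whose means differed in opposite directions. Gfap had a mean of 1894 CPM in controls, 3419 CPM after SCL and 3122 CPM after ECL. For Slc1a3 the means were 4068, 3099 and 3029 CPM. Whether the astrocyte or microglia share bears on the metallothionein levels was not tested.

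The ferritin light chain gene had the largest change of the 9 genes tested. Ftl1 (chr7:45457944-45459884, minus strand) was counted at 18.1, 27.0, 21.2, 12.1 and 14.0 CPM in controls. It reached 63.4, 43.3, 108 and 44.2 CPM in SCL libraries and 101, 96.8, 86.0 and 105 CPM in ECL libraries. No lesioned library fell into the control range, and the ECL libraries lay close together. Ftl1 rose by 1.80 ± 0.30 on the log2 scale after SCL (edgeR adjusted p = 0.00243) and by 2.40 ± 0.21 after ECL (edgeR adjusted p = 2.18e-05), which is 3.49-fold and 5.28-fold. By p-value Ftl1 stood at rank 8 of the 11212 genes tested after ECL.

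The light chain count comes from part of the mRNA only. Of the 100-base stretches of the Ftl1 transcripts, 55.3% occur in no other annotated transcript, and 33.7% also occur in the copy Ftl1-ps1 on chromosome 13. Ftl1-ps1 was counted at 39.3 ± 17.3 CPM in controls (n = 5), 188 ± 95.2 CPM after SCL (n = 4) and 271 ± 33.5 CPM after ECL (n = 4). Its counts were 1.54 to 3.05 times those of Ftl1, and it rose by 2.25 after SCL (edgeR adjusted p = 0.00231) and 2.79 after ECL (edgeR adjusted p = 6.83e-05). Reads of the copies cannot be told apart over the shared stretches. With the counts of Ftl1, Ftl1-ps1, Ftl2-ps, Gm10252 and Gm15590 added together, a sum chosen after seeing the data, the rise was 2.14 after SCL (edgeR adjusted p = 0.00206) and 2.68 after ECL (edgeR adjusted p = 3.55e-05).

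Fth1 (chr19:9980598-9985098, plus strand) encodes the heavy chain, which carries ferritin's ferroxidase centre. Controls lay close together at 2618, 2802, 2956, 2636 and 2396 CPM. SCL libraries held 2506, 2250, 4962 and 2747 CPM, and ECL libraries 4360, 5192, 4033 and 5370 CPM. All 4 ECL libraries lay above every control. In SCL, 3 libraries lay within or just below the control range and replicate 3 lay among the ECL values. Fth1 rose by 0.83 ± 0.15 on the log2 scale after ECL, 1.78-fold (edgeR adjusted p = 0.00171). After SCL the difference was 0.22 ± 0.22 (95% confidence interval -0.26 to 0.69, edgeR adjusted p = 0.498), and without replicate 3 it was -0.09.

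The 2 ferritin chains thus did not keep their ratio. Fth1 counts were 104 to 217 times Ftl1 counts in the control libraries, 39.6 to 62.2 times in SCL and 43.1 to 53.6 times in ECL libraries. The lesioned ranges did not reach the control range. The ratio is one of counts, not of molecules, since the Ftl1 count leaves out shared stretches. Both chains are abundant in microglia. After ECL both chains and 8 microglia markers rose, whereas after SCL all 12 tested microglia markers and Ftl1 rose and Fth1 did not pass. The part of microglia in the ferritin change was not tested.

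Trf (chr9:103204001-103230444, minus strand) encodes transferrin, which in brain is made mainly by oligodendrocytes and the choroid plexus. Its level was 259.5, 325, 214, 231 and 161 CPM in controls. After SCL it was 594, 453, 401 and 370 CPM, and after ECL 735, 398, 469 and 380 CPM. No lesioned library overlapped the controls, and replicate 3 did not stand out among the SCL libraries. Trf rose by 0.93 ± 0.20 on the log2 scale after SCL, 1.91-fold (edgeR adjusted p = 0.00693), and by 1.07 ± 0.22 after ECL, 2.09-fold (edgeR adjusted p = 0.00348).

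The oligodendrocyte lineage markers did not move as a whole beside Trf. Their sum over 13 genes was 4798 to 6384 CPM in controls, 4705 to 5989 CPM after SCL and 4228 to 6496 CPM after ECL. Of the 13, 3 rose and 0 fell after either lesion. The 5 choroid plexus and ependyma markers summed to at most 12.5 CPM in any library. Of the Trf exon bases, 63.5% lie in the overlapping gene Gm20425 of GENCODE M21, which was not among the gene symbols counted in the series.

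The genes that carry iron across membranes showed no rise. Tfrc (chr16:32608920-32632794, plus strand), the receptor that takes in iron-loaded transferrin, was counted at 239, 148, 155, 197 and 222 CPM in controls. SCL libraries held 224, 215, 175 and 153 CPM and ECL libraries 213, 208, 194 and 152 CPM. The 3 groups covered the same range. The log2 difference was 0.00 after either lesion (rounded), with 95% confidence intervals of -0.37 to 0.37 after SCL and -0.36 to 0.36 after ECL.

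Slc11a2 (chr15:100387898-100425072, minus strand) encodes the proton-coupled transporter that moves iron out of endosomes. It was counted at 33.9, 38.4, 49.7, 47.5 and 43.9 CPM in controls. SCL libraries held 24.2, 29.9, 26.0 and 32.9 CPM, all below the lowest control. ECL libraries held 26.6, 22.2, 33.9 and 27.4 CPM, of which the highest lay just under the lowest control. Slc11a2 fell by 0.60 ± 0.16 on the log2 scale after SCL (edgeR adjusted p = 0.0188) and by 0.63 ± 0.17 after ECL (edgeR adjusted p = 0.0159). With TMM factors over all symbols the differences were -0.39 and -0.43 (edgeR adjusted p = 0.0787 and 0.0746), and the differences also missed the threshold after SCL without replicate 1 (-0.53) or 3 (-0.55) and after ECL without replicate 2 (-0.53), with edgeR adjusted p-values of 0.0542 to 0.0606.

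Slc40a1 (chr1:45908068-45926523, minus strand), the ferroportin gene, was near the limit of counting, with 12 to 132 counts per library. Controls held 3.74, 2.84, 4.66, 3.77 and 1.75 CPM. SCL libraries held 2.16, 1.86, 2.48 and 2.67 CPM and ECL libraries 2.98, 1.48, 0.575 and 1.48 CPM. The groups overlapped. In a test of all genes without a minimum count the log2 difference was -0.33 ± 0.44 after SCL (edgeR adjusted p = 0.628) and -0.78 ± 0.46 after ECL (edgeR adjusted p = 0.223).

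Hmox1 (chr8:75093621-75100589, plus strand), a stress-induced gene that Nrf2 activates and Bach1 represses, had overlapping levels in the 3 groups. Controls held 40.3, 30.0, 28.9, 17.9 and 19.5 CPM. SCL libraries held 28.7, 33.9, 41.8 and 48.2 CPM and ECL libraries 28.6, 31.6, 27.0 and 36.5 CPM. The log2 difference was 0.48 ± 0.24 after SCL (95% confidence interval -0.04 to 1.00, edgeR adjusted p = 0.162) and 0.19 ± 0.23 after ECL (-0.30 to 0.67, edgeR adjusted p = 0.574).

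**Figure D2:**
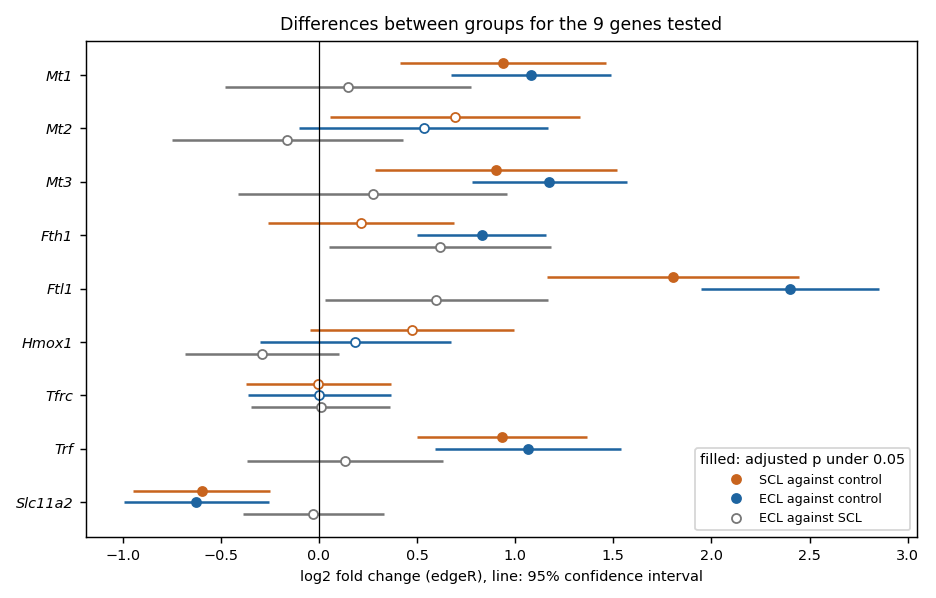
Log2 fold change (horizontal axis) of the 9 genes tested in SCL against control (orange), ECL against control (blue) and ECL against SCL (grey); lines are 95% confidence intervals and filled points have an adjusted p under 0.05. Ftl1 is farthest to the right at 1.80 and 2.40, Slc11a2 lies left of 0 after both lesions, and none of the grey points is filled.

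Setting the lesions against each other asks whether the metal genes answered differently to the loss of one input or the other. None of the 9 genes passed in ECL against SCL, where 0 of 12232 genes did (0.0%) and 897 genes (7.33%) had an unadjusted p under 0.05. DESeq2 called 65 genes in this comparison. The 2 ferritin chains were the only ones of the 9 under an unadjusted p of 0.05. Fth1 was 0.62 ± 0.26 higher after ECL on the log2 scale (edgeR unadjusted p = 0.0357, adjusted p = 0.664) and Ftl1 0.60 ± 0.26 higher (edgeR unadjusted p = 0.0410, adjusted p = 0.667). For each chain the ECL and SCL ranges overlapped, through SCL replicate 3, which lay within or above the ECL range. That library stood out by its values in this same gene set. The share of all genes that separate once it is set aside was not counted. Without that library Ftl1 was 0.96 higher after ECL (edgeR adjusted p = 0.0483), Fth1 0.93 higher (edgeR adjusted p = 0.0833), and 54 genes passed in all. The difference was 0.15 for Mt1 (95% confidence interval -0.48 to 0.77), 0.27 for Mt3 (-0.41 to 0.96), 0.13 for Trf (-0.37 to 0.63) and -0.03 for Slc11a2 (-0.39 to 0.33).

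Short mRNAs were higher after the lesions as a class, and the 3 metallothioneins and Ftl1 are short. In genes with 1000 to 1500 exon bases the median log2 difference from controls was 0.40 (SCL) and 0.44 (ECL), and 34.5% and 39.8% of them rose. In genes with over 5000 exon bases it was -0.14 in both comparisons, and 5.09% and 5.46% of them rose. Exon length is 1246 bases for Mt1, 1066 for Mt3, 1340 for Ftl1, 3320 for Trf, 3469 for Fth1 and 6354 for Slc11a2. The fit was repeated with an offset that took out each library's smooth trend over exon length and GC content. Mt1 (0.53, edgeR adjusted p = 0.0679) and Mt3 (0.62, edgeR adjusted p = 0.0700) then no longer passed after SCL. After ECL all 6 genes passed in that fit, with log2 differences of 0.64 for Mt1, 0.82 for Mt3, 0.79 for Fth1, 1.99 for Ftl1, 0.95 for Trf and -0.52 for Slc11a2. Ftl1 (1.47), Trf (0.80) and Slc11a2 (-0.52) also passed after SCL.

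**Figure D3:**
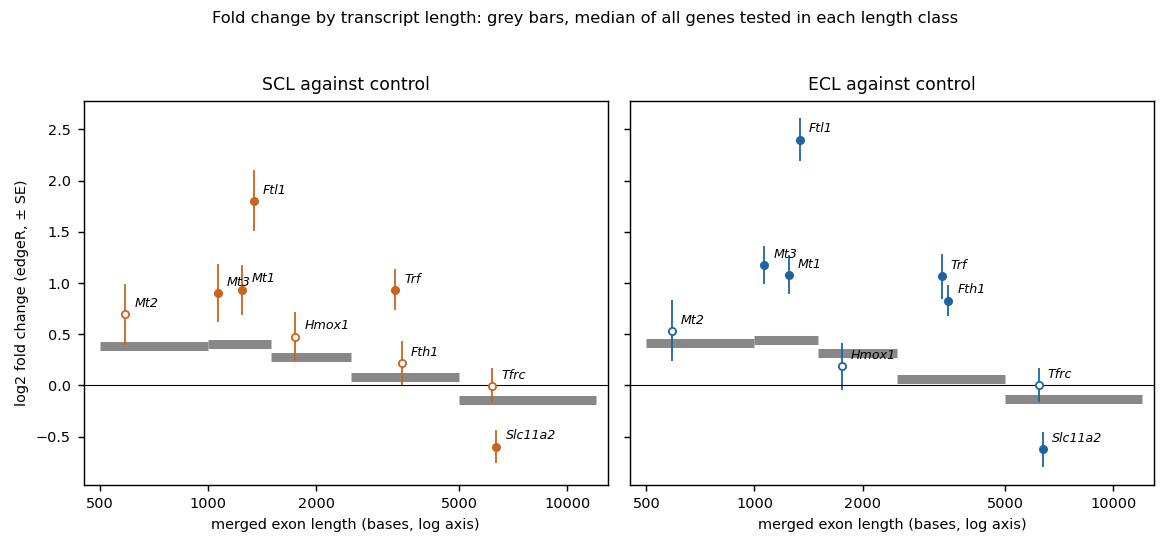
Log2 fold change (vertical axis, points with SE) against merged exon length (horizontal log axis, bases) for the 9 genes in each lesion comparison; filled points have an adjusted p under 0.05, and grey bars show the median of all genes tested in 5 length classes (the first and last are open-ended and drawn cut off). After SCL the medians are 0.38 and 0.40 in the first 2 classes and fall to -0.14 in the last, Mt1 and Mt3 lie above the bar of their class, and Ftl1 lies farthest above its bar.

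The other genes of iron traffic moved in both directions, and their counts stand beside a background of 24.9% of all genes tested that passed after SCL and 27.8% after ECL. Of 11 genes of iron uptake and endosomal reduction, 7 could be tested after SCL and 6 after ECL, and 2 rose in each. Hfe, whose protein binds the transferrin receptor, went from 10.6 ± 3.48 CPM (n = 5) to 21.5 ± 1.66 CPM after SCL and 19.1 ± 2.09 CPM after ECL (n = 4 each, edgeR adjusted p = 0.00879 and 0.0174). Slc22a17, the receptor for the siderophore carrier lipocalin 2, went from 111 ± 40.5 to 226 ± 42.8 and 260 ± 48.0 CPM (edgeR adjusted p = 0.0139 and 0.00288). Of 8 genes for iron sensing and ferritin turnover, 7 could be tested after SCL and 6 after ECL, and 1 rose and 2 fell after each lesion. The iron chaperone genes moved in opposite directions. Pcbp1, which delivers iron to ferritin, fell from 258 ± 54.2 to 121 ± 18.0 and 111 ± 13.1 CPM (edgeR adjusted p = 0.00198 and 0.000349). Pcbp2, which also binds Slc11a2 protein, rose from 69.9 ± 11.5 to 101 ± 15.2 and 99.7 ± 6.01 CPM (edgeR adjusted p = 0.0220 and 0.0185). Of the Pcbp2 exon bases, 36.2% are shared with other genes, chiefly Map3k12 on the opposite strand, and Pcbp2 missed the threshold without SCL replicate 1 or 2 or ECL replicate 4 (edgeR adjusted p = 0.0656, 0.0529 and 0.0518). Hfe missed it after ECL without ECL replicate 1 (0.78, edgeR adjusted p = 0.0530). Of 8 genes for export, ferroxidases and hepcidin, 1 could be tested, and it did not pass.

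The genes that make, use or break down haem and iron-sulphur clusters are given beside 13.1% of all genes that rose after SCL and 15.2% after ECL. In the length classes up to 2500 exon bases, 25.6% to 34.5% of genes rose after SCL and 32.6% to 41.0% after ECL. From 2500 to 5000 exon bases 14.1% and 15.5% rose, and above 5000 bases 5.09% and 5.46%. Both lists also hold genes of these longer classes. Exon length is 3576 bases for Uros, 2217 for Hmox2, 1838 for Isca2 and 4822 for Nfu1. The part of length in these lists was not tested. Of 20 genes of haem synthesis, transport and breakdown, 15 could be tested, and 6 rose and 0 fell after each lesion (medians 0.41 and 0.56). Uros, which makes a haem precursor ring, rose by 1.16 and 1.07 on the log2 scale (edgeR adjusted p = 0.00990 and 0.0226). Hmox2, the constitutive haem oxygenase, rose by 0.87 and 0.93 (edgeR adjusted p = 0.00783 and 0.00887), though 40.2% of its exon bases are shared with Cdip1. Without ECL replicate 1 the rise after ECL was 0.57 for Hmox2 and the difference 0.59 for Uros, which then did not pass (edgeR adjusted p = 0.104). Of 22 genes of mitochondrial iron and iron-sulphur cluster assembly, 20 could be tested. In this list 10 rose after each lesion, and 0 fell after SCL and 2 after ECL (medians 0.43 and 0.40). Isca2 rose from 59.2 ± 12.7 to 153 ± 32.6 and 155 ± 30.6 CPM (edgeR adjusted p = 0.00126 and 0.000227), and Nfu1 from 74.1 ± 3.78 to 144 ± 44.8 and 170 ± 30.8 CPM (edgeR adjusted p = 0.00401 and 0.000123). Both encode proteins that pass iron-sulphur clusters to mitochondrial enzymes.

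Zinc, copper and oxidative stress genes are given beside the same background of 24.9% and 27.8% of all genes that passed. Of 24 zinc genes, 15 could be tested, of which 0 rose and 2 fell after SCL, and 2 rose and 2 fell after ECL, a share no higher than the background. The zinc importer gene Slc39a1 fell from 261 ± 131 to 83.3 ± 29.3 CPM after SCL and 40.5 ± 9.36 CPM after ECL (edgeR adjusted p = 0.00701 and 0.000153), with 14.8% of its 100-base stretches shared with Slc39a1-ps, and Slc39a6 from 78.9 ± 5.54 to 47.3 ± 7.13 and 49.0 ± 3.12 CPM (edgeR adjusted p = 0.00348 and 0.00198). Without a minimum count Slc39a6 missed the threshold after ECL (-0.49, edgeR adjusted p = 0.0656). Of 11 copper genes, 9 could be tested, and 4 rose after each lesion, while 2 fell after SCL and 3 after ECL. The copper exporter gene Atp7b fell from 41.0 ± 23.7 to 12.6 ± 2.81 and 8.10 ± 0.327 CPM (edgeR adjusted p = 0.00611 and 0.000490), and the copper-zinc superoxide dismutase gene Sod1 from 397 ± 136 to 200 ± 28.7 and 169 ± 22.4 CPM (edgeR adjusted p = 0.00639 and 0.00102). Of 14 genes of Nrf2, Bach1 and targets that they share with Hmox1, 12 could be tested, and 1 rose and 1 fell after SCL and 0 rose and 3 fell after ECL. Keap1, which holds Nrf2 in check, fell by 0.78 (edgeR adjusted p = 0.00894) and the cystine carrier gene Slc7a11 by 0.67 (edgeR adjusted p = 0.0308) on the log2 scale after ECL. Their SCL differences were -0.39 and -0.38 and did not pass (edgeR adjusted p = 0.141 and 0.209). Slc7a11 missed the threshold after ECL with control replicate 1 or 4 or any 1 ECL library left out (-0.53 to -0.71, edgeR adjusted p = 0.0548 to 0.0746) and with the length and GC offset (-0.34, edgeR adjusted p = 0.144). Of the Keap1 exon bases, 10.9% are shared with Gm16754 on the opposite strand.

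The genes whose levels followed each member most closely over the 13 libraries were ranked by the root mean square difference of centred log2 CPM, a description with no test that partly restates the shared group difference. Of 11147 genes, Bola3, an iron-sulphur cluster gene, lay nearest to Mt1 (0.126), ahead of Mt3 (0.207) and Mt2 (0.284). Cox6a1, of cytochrome oxidase, lay nearest to Mt3 (0.181) and Ppp2r1a, of phosphatase 2A, nearest to Ftl1 (0.255). Mrpl46, of the mitochondrial ribosome, lay nearest to Trf (0.121) and Maged1 nearest to Slc11a2 (0.0835). Nearest to Fth1 lay the processed pseudogene Gm12191 (0.162), and Ftl1 lay far from it (0.817).

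**Figure D4:**
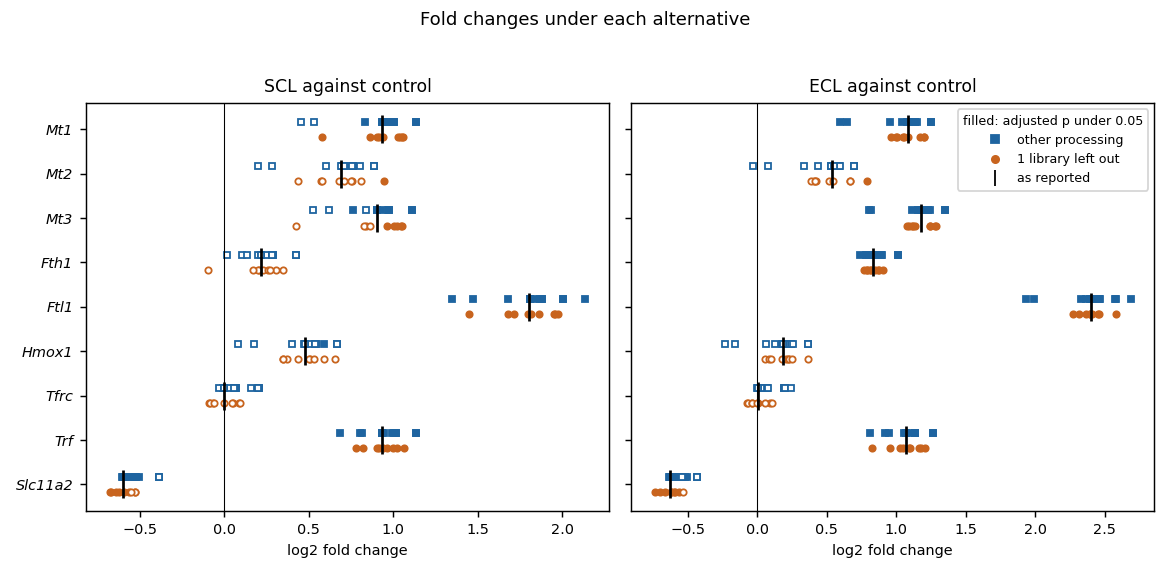
Log2 fold change (horizontal axis) of the 9 genes in each lesion comparison as reported (black mark), under other processing (blue squares) and with 1 library left out (orange circles); filled symbols have an adjusted p under 0.05. Every symbol of Ftl1 and Trf is filled in both panels, and the Mt3 symbols open in the left panel include 0.43, the value without SCL replicate 3.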

How the data were processed

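RNA of 13 CA1 isolates (5 control, 4 SCL, 4 ECL) was sequenced in pairs on a NovaSeq6000 after polyA enrichment and amplification from low input. Per the labels and the study's methods, the authors trimmed reads with cutadapt 3.5, aligned them to mm10 with STAR 2.7.8a and counted them per gene symbol on GENCODE M25 with featureCounts 2.0.1, ignoring strand. The deposited tables, 1 per library, hold these counts without normalisation. Between 63.0% and 74.3% of low counts were even per library, as when both mates of a pair are counted. The protocol text of the labels names the dentate gyrus, whereas titles and source names give CA1. Recorded sex (2 male and 3 female controls, 1 and 3 SCL, 3 and 1 ECL) matched sex-linked genes in 13 of 13 libraries. Of 78 library pairs, 0 had identical counts.

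Groups were taken from the labels. Each pair of groups was fitted alone with edgeR 4.0.16 (R 4.3.3, glmQLFit and glmQLFTest, two-sided), on genes with a mean of at least 150 normalised counts, with TMM factors over these genes, Benjamini-Hochberg adjustment over all genes tested and a threshold of 0.05. The fit was tested on simulated data. The biological coefficient of variation was 0.241 (SCL against control), 0.237 (ECL against control) and 0.220 (ECL against SCL). CPM used TMM over 11649 genes with that mean over the 13 libraries. Alternatives were DESeq2 1.42.0, other scalings and filters, 1 fit over all libraries, a sex term, halved counts, a smooth offset for length and GC content (mgcv 1.9.3), the replicate number as a block, and each library left out. Counts summed with sequence-sharing genes were added after seeing the data. Positions, exon lengths and shared bases come from GENCODE M21, which held 53292 of the 55291 symbols. Text names all 10 genes, at most the 2 with the smallest adjusted p of each list, and the nearest genes by level. Members and lists were chosen with earlier results of these data known.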

Additional observations from a re-analysis of the deposited data

Results flagged for a closer look

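In the SCL group, replicate 3 stood apart from the other 3 libraries for each metallothionein by Dixon's test, in which the gap to the nearest library is divided by the group's range and set against the 95% critical value for 4 samples. For Mt1 it held 2717 CPM against 1201 to 1321 CPM in the others (0.921), for Mt2 27.2 CPM against 13.7 to 15.9 CPM (0.836) and for Mt3 828 CPM against 301 to 352 CPM (0.903). The test was applied to the 10 genes in each of 3 groups, 30 in all, and chance gives about 1 such case in 20. The 3 cases are from 1 library and are not independent of each other. Over all genes that library was not the most distant one of its group (root mean square log2 distance from the rest 0.354, others 0.239 to 0.437), but 62.8% of its genes lay nearer to the ECL mean than to the rest of SCL, against 36.6% to 51.8% in the other 3.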

How the results depend on the processing

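Ftl1 and Trf kept their direction and their call in both lesion comparisons under every alternative and with any library left out, and Mt1, Mt3 and Fth1 did so after ECL. Leaving out 1 library at a time, the genes that passed numbered 1679 to 2797 after SCL, 2088 to 3062 after ECL and 0 to 54 in ECL against SCL, and the metal genes among them 3 to 6, 5 to 7 and 0 to 1. The lowest SCL counts and the highest counts of ECL against SCL were those without SCL replicate 3. Without a minimum count, where more genes were tested and the TMM factors were taken over all of them, 5390, 8034 and 217 genes passed, and 189 of the 217 were among the 12232 genes of the reported fit. The cause was not tested. In ECL against SCL, DESeq2 called 65 genes, and 1 passed in the fit of all libraries and 1 with a sex term. With the length and GC offset, and with that offset and the replicate block together, 3 metal genes passed after SCL in place of 5. Replicate numbers of the labels did not pair the cultures throughout. Same-numbered libraries correlated at -0.11 to 0.24 (SCL with control), -0.16 to 0.43 (ECL with control) and -0.14 to 0.54 (ECL with SCL), and not every library correlated best with its own number. ECL replicate 1 did so with SCL replicate 1 (0.54, other SCL libraries at most -0.16), and ECL replicate 3 with control replicate 3 (0.43, other controls at most 0.16). The headings of the deposited count columns carry another number, which often differs from the label replicate number. ECL replicate 1, SCL replicate 1 and control replicate 3 all had heading number 3 and female sex. ECL replicate 3, with heading number 2 and male sex, did not share its heading with control replicate 3. No fit used the heading numbers, and whether some cultures shared an animal or a batch was not tested. With the label replicate number as a block 2342, 2663 and 0 genes and 5, 6 and 0 metal genes passed.

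TMM over all symbols moved the median of the tested genes (SCL from 0.01 to 0.21, ECL from -0.01 to 0.18) and the upward share of calls from 52.8% to 80.9% and from 54.9% to 77.8%. Relative to that shift Slc11a2 lay as low as in the reported fits. Values near 0 changed sign. Tfrc after SCL was 0.070 with DESeq2 and with its size factors, 0.21 with TMM over all symbols and without a minimum count, 0.028 with total counts, 0.063 with filterByExpr, 0.060 with the replicate block, 0.16 with the length and GC offset and 0.20 with block and offset. Tfrc after ECL was -0.0056 in the fit of all libraries. Tfrc in ECL against SCL was -0.0001 with DESeq2 and its size factors and -0.0002 in the fit of all libraries. After ECL, Hmox1 was -0.16 with the offset and -0.23 with block and offset, and Mt2 -0.0305 with both. With 1 library left out the log2 difference of Tfrc ranged from -0.0907 to 0.0908 (SCL), -0.0776 to 0.10 (ECL) and -0.0825 to 0.10 (ECL against SCL), that of Fth1 after SCL from -0.0944 to 0.35, and in ECL against SCL those of Mt2 from -0.31 to 0.10, of Trf from -0.12 to 0.29 and of Slc11a2 from -0.14 to 0.0665. The causes were not tested.

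Other calls moved too. Mt3 after SCL missed the threshold with a sex term (0.84, edgeR adjusted p = 0.0628) and with 4 of 9 libraries left out in turn. Slc11a2 after ECL missed it with a sex term (edgeR adjusted p = 0.0556). Mt2 after SCL passed with DESeq2 (0.76, adjusted p = 0.0447), and Hmox1 after SCL with a sex term (0.59, edgeR adjusted p = 0.0496). Without a minimum count Mt2 passed after SCL (0.89, edgeR adjusted p = 0.00677) and ECL (0.69, edgeR adjusted p = 0.0421) and Hmox1 after SCL (0.67, edgeR adjusted p = 0.0167), while Slc11a2 missed the threshold in both (edgeR adjusted p = 0.190 and 0.134). Depth limited Slc40a1, at 12 to 132 counts per library.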
